A study of Homo sapiens with 12 samples.

Results

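The genes described here encode the chains of the collagens and laminins, the main structural proteins of the extracellular matrix, in MDA-231-LM2 cells. They were chosen by name, as every gene symbol of the form COL, number, A, number or LAM, A, B or C, number. Of 21574 features in the deposited table, 56 matched, 44 of them collagen chains and 12 laminin chains. MDA-231-LM2 is a lung-metastatic subline of MDA-MB-231, an established line of human breast carcinoma cells. RNA sequencing covered 12 libraries in 4 groups of 3, namely TMEM216+IGF1, TMEM216, Ctrl+IGF1 and Ctrl. The name TMEM216 or Ctrl gives the cell population, and IGF1 marks the populations that received that growth factor. The labels state neither what was done to TMEM216 in the cells of that name, nor whether they are 1 clone, nor the dose and duration of IGF1.

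A collagen is a helix of 3 chains, and the genes of a type often encode different chains of 1 molecule. Fibrillar collagens form the fibres of connective tissue, type IV collagens the sheet of the basement membrane, and type VI collagens beaded filaments at the border between them. Laminins are cross-shaped molecules of 1 alpha, 1 beta and 1 gamma chain that join type IV collagen in the basement membrane and are bound by integrins of epithelial and carcinoma cells.

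Expression is given as TPM, an abundance per transcript length scaled to a common total in each library, so levels of different genes can be set side by side. TPM keeps no read counts, so the depth behind each value is unknown. Of the 56 chains, 31 had at least 1 TPM in 3 or more libraries and could be tested, 21 collagens and 10 laminins. Together the 56 averaged 0.226% of all TPM, and collagens made up 57.5% of that and laminins 42.5%. The other 25 did not pass that filter and include COL5A3, COL23A1, COL26A1 and LAMC3, which were listed at 0 in all 12 libraries.

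**Figure D1:**
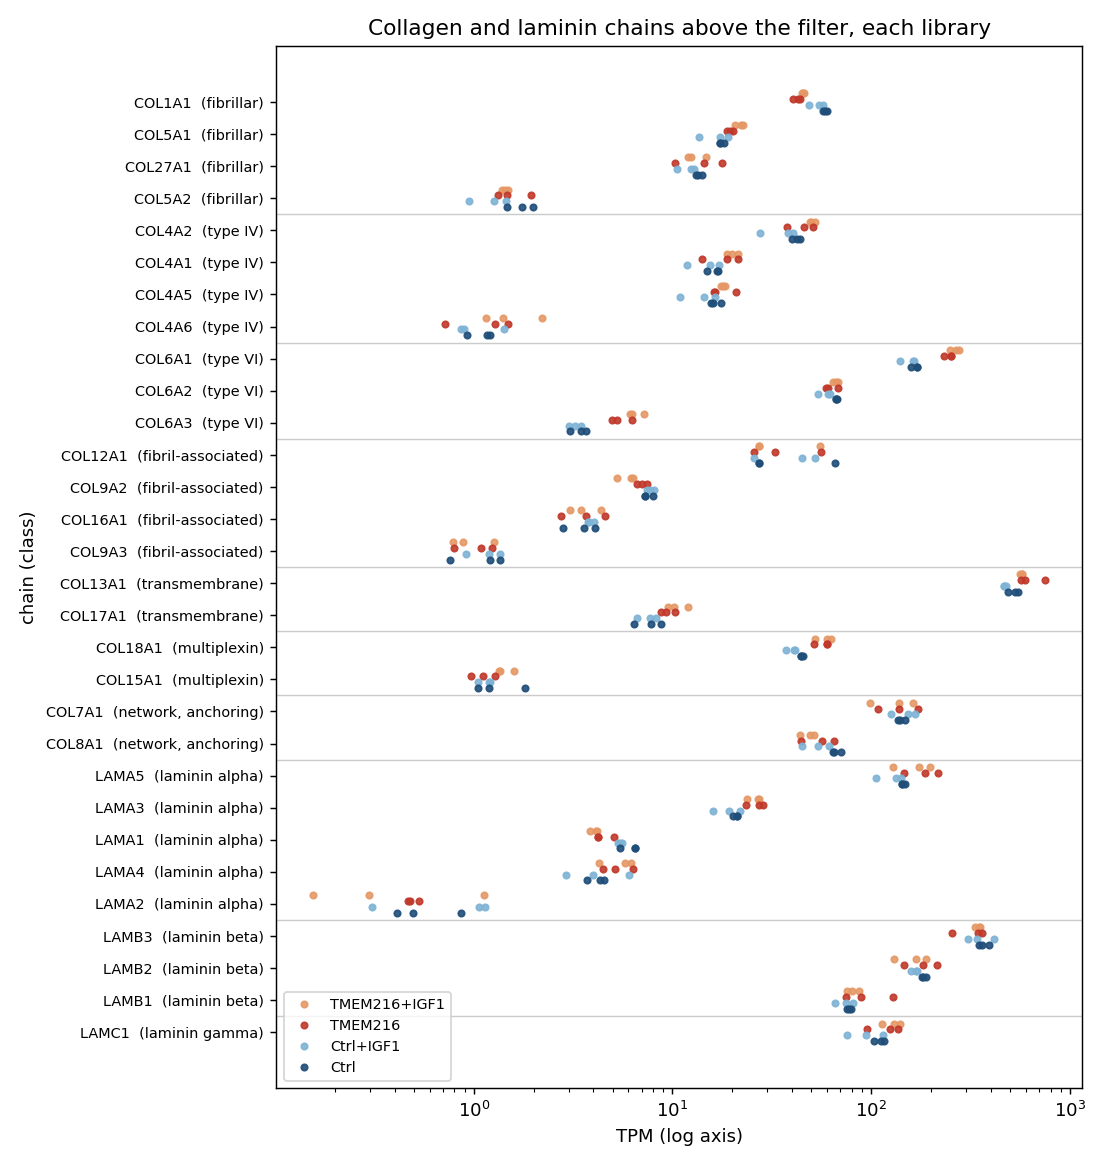
TPM (log axis) of 30 chains above the filter, 1 dot per library, grouped by class. COL13A1 was the highest chain, at a mean of 550 TPM over the 12 libraries, and LAMA2 the lowest, at 0.612 TPM.

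Single chains carried most of each class. Means over the 12 libraries were 550 TPM for COL13A1, a transmembrane collagen of cell adhesion sites, 347 TPM for the laminin chain LAMB3 and 208 TPM for COL6A1. Of 11 fibrillar chains 4 passed the filter, COL1A1 (49.9 TPM), COL5A1 (18.9 TPM), COL27A1 (13.2 TPM) and COL5A2 (1.49 TPM). COL1A2, the partner of COL1A1 in the type I heterotrimer, averaged 0.225 TPM and did not. Of 6 type IV chains 4 passed, COL4A2 (43.2 TPM), COL4A1 (17.3 TPM), COL4A5 (16.5 TPM) and COL4A6 (1.23 TPM). Of 5 type VI chains 3 passed, COL6A1, COL6A2 (63.7 TPM) and COL6A3 (4.66 TPM). The other collagens gave 10 of 22, among them COL7A1 (140 TPM), which forms the anchoring fibrils under epithelia, and COL8A1 (55.9 TPM), COL18A1 (50.01 TPM), COL12A1 (38.9 TPM), COL17A1 (8.80 TPM), COL9A2 (7.05 TPM), COL16A1 (3.66 TPM), COL15A1 (1.26 TPM) and COL9A3 (1.07 TPM).

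All 5 laminin alpha chains passed, led by LAMA5 (155 TPM) and LAMA3 (23.1 TPM), with LAMA1 at 5.04 TPM, LAMA4 at 4.80 TPM and LAMA2 at 0.612 TPM. LAMA2 reached 1 TPM in just 3 libraries. The beta chains LAMB3, LAMB2 (173 TPM) and LAMB1 (82.3 TPM) and the gamma chain LAMC1 (113 TPM) passed as well. The chains nearest below the filter were COL4A4, with a mean of 0.404 TPM, COL24A1, with 0.305 TPM, and COL8A2, with 0.241 TPM. Those nearest above it were LAMA2 and COL9A3.

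TMEM216 averaged 226 ± 5.70 TPM in TMEM216+IGF1 and 27.3 ± 2.60 TPM in Ctrl+IGF1 libraries, and 212 ± 44.1 TPM in TMEM216 and 26.4 ± 3.25 TPM in Ctrl libraries (SD, n = 3 each). Markers of the MDA-MB-231 line were high in every library (VIM at a mean of 6309 TPM, CD44 at 448 TPM). The fibroblast genes DCN, LUM, PDGFRA, FAP and DPT were at or near 0. Of the 8 fibroblast and pericyte markers 3 passed the filter, RGS5 (mean 6.13 TPM), ACTA2 (2.63 TPM) and PDGFRB (0.97 TPM). The level summed over the 8 was 10.1 to 12.5 TPM in TMEM216+IGF1 and 8.25 to 9.58 TPM in TMEM216 libraries. It was 7.11 to 9.54 TPM in Ctrl+IGF1 and 6.90 to 12.7 TPM in Ctrl libraries. The part of these markers in the results was not tested. Correlations between libraries on the log2 scale ran between 0.977 and 0.990. The library Ctrl+IGF1 replicate 3 stood apart: its scale factor from the median of ratios was 0.884, against 0.966 to 1.04 in the other 11. It was the lowest of its 3 for 24 of the 31 chains. The chains are long and rich in G and C, with a median transcript length of 6547 bases and 55.9% GC, against 3637 bases and 48.1% over all tested features with a value. Whether replicates were separate cultures is not stated by the labels; the spread behind each p-value is that of the libraries and may be technical. In bulk RNA, fewer cells that express a chain and less of its RNA per cell cannot be told apart.

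The TMEM216 comparison asks which chains differ between the TMEM216 and Ctrl populations. Values are log2 fold changes on the log2(TPM + 1) scale, which understates the change of low genes, with limma's moderated SE and a Benjamini-Hochberg p over all 13071 features tested. Averaged over IGF1, 6 of the 31 chains rose (COL6A1, COL6A3, COL18A1, COL13A1, COL17A1 and LAMA3) and 2 fell (COL1A1 and LAMA1) in TMEM216 cells. Called were thus 25.8% of the chains, beside 5.22% of all tested features, 2.00% higher and 3.21% lower. The same 8 chains, and no other, had all 6 TMEM216 libraries on 1 side of all 6 Ctrl libraries, against 4.39% of all tested features, 1.97% higher and 2.42% lower. The median log2 fold change of the 31 was 0.17, and that of all tested features -0.000535. Without TMEM216+IGF1 replicate 2 the median of the chains was 0.10, without TMEM216 replicate 1 it was 0.11, and without both Ctrl+IGF1 replicate 3 and TMEM216 replicate 1 it was 0.07. With no filter, over 52 chains that include those under the filter, it was -0.0039, against -0.0038 for all features. The averaged comparison uses the same libraries as the comparisons with and without IGF1 and is no further evidence for chains called there.

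**Figure D2:**
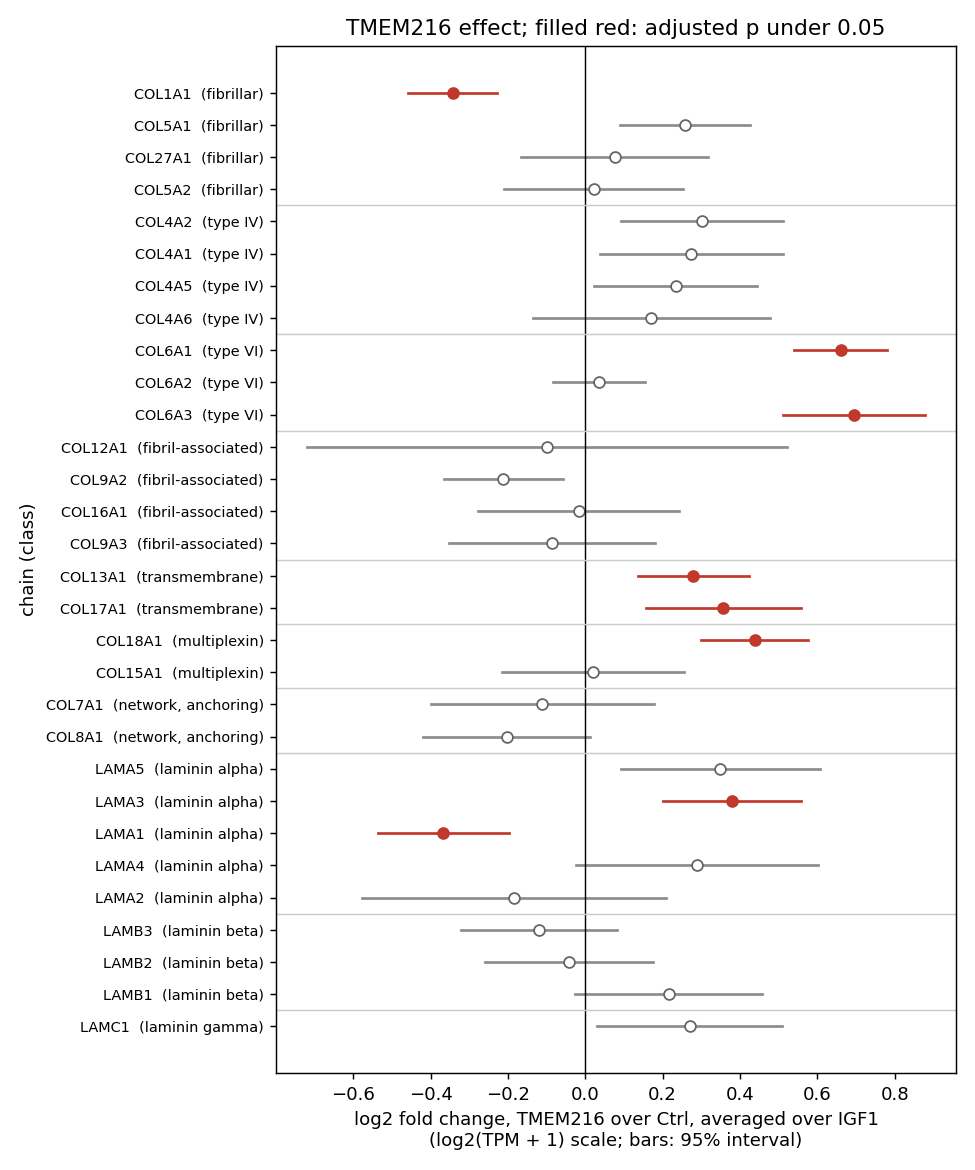
Log2 fold change of 30 chains, TMEM216 over Ctrl averaged over IGF1 (dots), with its 95% interval (bars); filled red dots have an adjusted p under 0.05. The 6 chains that rose lie between 0.28 and 0.69, and the 2 that fell at -0.34 and -0.37.

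With IGF1, in TMEM216+IGF1 against Ctrl+IGF1 cells, 3 chains rose and 0 fell, against 1.61% of all features called, 0.918% higher and 0.696% lower. In that comparison the groups did not overlap for 13 chains that were higher and 3 that were lower, against 19.7% of all features, 12.0% higher and 7.69% lower. Without IGF1, in TMEM216 against Ctrl cells, 2 rose and 1 fell, against 1.09% of all features, 0.153% higher and 0.941% lower. There 7 chains were higher and 2 lower without overlap, against 21.8% of all features, 6.30% higher and 15.5% lower. At an unadjusted p under 0.05 were 16 chains with IGF1 (51.6%, against 15.8% of all features) and 7 without (22.6%, against 13.2%). Medians of the 31 chains were 0.18 with IGF1 and 0.04 without, where all features had 0.05 and -0.05. With IGF1 the median of the chains was 0.10 without Ctrl+IGF1 replicate 3, against -0.0056 for all features. Without IGF1 it was 0.12 under quantile normalization and 0.09 under median-of-ratios scaling, against 0.0039 and 0.0023 for all features. After the correction for transcript length and GC content described below, the medians were 0.17 with IGF1 and 0.16 without, so their gap nearly closed. Those of all features were then 0.0068 and 0.0090. The gap was also narrower under both other scalings, where the chains with IGF1 had 0.18 with quantiles and 0.15 with median of ratios. When each comparison was fitted on its own 6 libraries alone, COL6A1 was the 1 chain called in each.

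Type VI collagen held the 2 largest averaged differences of the 31 chains, and its chains differed unequally. Summed over the class, its level was 336 ± 15.1 TPM in TMEM216+IGF1 and 218 ± 18.4 TPM in Ctrl+IGF1 libraries, and 314 ± 15.1 TPM in TMEM216 and 237 ± 5.45 TPM in Ctrl libraries (SD, n = 3 each). COL6A1 encodes the alpha 1 chain, which is required for assembly of the molecule. COL6A1 had 268, 248 and 275 TPM in TMEM216+IGF1 libraries, against 164, 163 and 139 TPM in Ctrl+IGF1 libraries. Without the growth factor, values were 253, 251 and 232 TPM in TMEM216 libraries, against 171, 169 and 159 TPM in Ctrl libraries. Each TMEM216 library lay well above each Ctrl library, with or without IGF1. COL6A1 rose 1.58-fold over the means of 6 libraries, 255 ± 15.3 TPM in TMEM216 and 161 ± 11.5 TPM in Ctrl populations (SD), with a log2 fold change of 0.66 (SE 0.055, adjusted p = 3.23e-05).

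COL6A3 encodes the long alpha 3 chain, whose end is cut off as the peptide endotrophin. COL6A3 had 6.25, 7.20 and 6.10 TPM in TMEM216+IGF1 libraries, against 3.22, 3.47 and 3.03 TPM in Ctrl+IGF1 libraries. Without added IGF1 there were 6.28, 5.25 and 4.98 TPM in TMEM216 libraries, against 3.06, 3.46 and 3.66 TPM in Ctrl libraries. The groups did not overlap, and the level was low in all of them. COL6A3 rose 1.81-fold over the 6-library means, by 0.69 on the log2(TPM + 1) scale (SE 0.084, adjusted p = 0.000733). Without IGF1 its call (0.56, adjusted p = 0.0471) was lost in 11 of 12 fits that left out 1 library, all but the one without Ctrl+IGF1 replicate 3, with adjusted p up to 0.183.

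COL6A2 encodes the alpha 2 chain, which pairs with alpha 1 in each molecule, and is the neighbour of COL6A1 on chromosome 21. COL6A2 had 68.0, 64.1 and 66.5 TPM in TMEM216+IGF1 libraries, against 60.9, 62.0 and 54.3 TPM in Ctrl+IGF1 libraries. In the absence of IGF1, levels were 60.3, 68.3 and 59.4 TPM in TMEM216 libraries, against 66.5, 66.9 and 67.3 TPM in Ctrl libraries. The TMEM216 libraries lay above the Ctrl ones with IGF1 and overlapped them without it. The averaged log2 fold change of COL6A2 was 0.03 (95% interval -0.08 to 0.15, adjusted p = 0.795). After the length and GC correction described below it was 0.13 (adjusted p = 0.125 by limma), with 0.22 in the comparison with IGF1 and 0.03 in that without. COL6A5 and COL6A6, which can take the place of alpha 3, were at most 0.0344 TPM in any library.

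**Figure D3:**
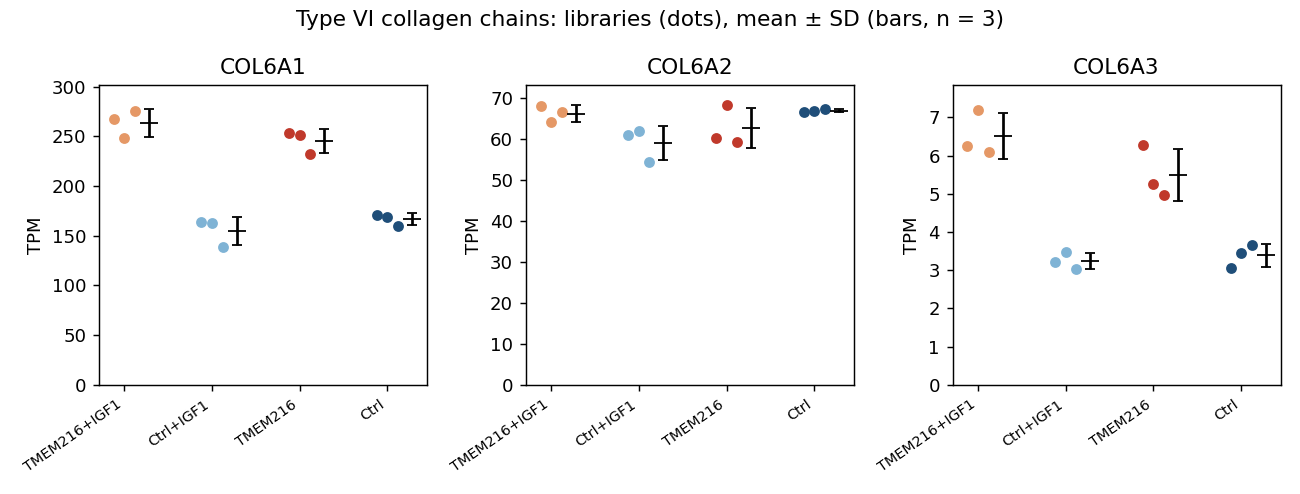
TPM of the 3 type VI chains above the filter by group, with libraries as dots and the mean ± SD of 3 as bars. COL6A1 and COL6A3 lie higher in both TMEM216 groups than in both Ctrl groups, while COL6A2 lies between 54.3 and 68.3 TPM throughout.

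The promoter windows of COL6A2 and COL6A3 are shown because these chains differed in response, COL6A3 rising and COL6A2 not passing the test. Each runs 250 bases before to 50 after the annotated start, 5′ to 3′ on the gene's strand, from RefSeq on GRCh38.p14. COL6A2 is chr21:46097862-46098161 on the plus strand and COL6A3 chr2:237414115-237414414 on the minus strand. Capitals mark matches, on either strand, to 6 motifs: the GC box GGGCGG, the CCAAT box CCAAT, the TATA box TATAAA, the AP-1 site TGANTCA, an ATF4 composite site TGATGNAA and an antioxidant response element TGACNNNGC. Matches may overlap one another.
COL6A2: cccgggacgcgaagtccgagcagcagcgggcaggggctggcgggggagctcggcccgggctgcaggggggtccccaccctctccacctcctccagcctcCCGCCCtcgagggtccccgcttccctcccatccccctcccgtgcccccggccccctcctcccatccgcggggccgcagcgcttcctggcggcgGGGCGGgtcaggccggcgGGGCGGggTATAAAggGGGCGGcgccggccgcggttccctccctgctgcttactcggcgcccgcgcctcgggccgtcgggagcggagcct
COL6A3: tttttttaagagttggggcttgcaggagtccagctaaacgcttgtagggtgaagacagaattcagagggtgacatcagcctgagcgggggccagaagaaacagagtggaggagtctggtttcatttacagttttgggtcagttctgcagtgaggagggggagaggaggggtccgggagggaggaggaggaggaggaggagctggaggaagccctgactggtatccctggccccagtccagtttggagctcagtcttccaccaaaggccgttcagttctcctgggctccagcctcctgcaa
The COL6A2 window holds 4 GC boxes and 1 TATA box, and none of the 6 motifs matched in the COL6A3 window. A match is a description of letters, not a site in use. COL6A1 and COL1A1 had no window in the source used, so COL6A1 could not be set beside COL6A2 and COL6A3. Of the 56 chains 41 had a window, 24 of them above the filter. Among these 24 the GC box was in 17, against 44.6% of all 27303 windows in the table, the CCAAT box in 5 (35.7%), the TATA box in 4 (12%), the AP-1 site in 1 (7.76%), the antioxidant response element in 2 (13.6%) and the ATF4 composite site in 0 (3.67%).

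The ratio of type VI chains within a library does not depend on that library's scaling. It can still shift with transcript length and GC content, in which the chains differ. COL6A1 has 4238 bases and 63.5% GC, COL6A2 3461 bases and 66.4%, and COL6A3 10749 bases and 53.2%. The median log2 deviation of GC-rich against GC-poor features ran from -0.22 in TMEM216 replicate 3 to 0.24 in Ctrl+IGF1 replicate 3. COL6A1 over COL6A2 was 3.94, 3.87 and 4.14 in TMEM216+IGF1 libraries, against 2.69, 2.63 and 2.56 in Ctrl+IGF1 libraries. Without IGF1 it was 4.20, 3.67 and 3.91 in TMEM216 libraries, against 2.57, 2.53 and 2.37 in Ctrl libraries. COL6A3 over COL6A2 ran 0.0768 to 0.112 in the 6 TMEM216 libraries and 0.0460 to 0.0559 in the 6 Ctrl libraries. Both ratios were without overlap, whereas COL6A1 over COL6A3 overlapped, at 34.5 to 47.8 and 43.6 to 55.8. Such ratios show that chains changed unequally, not that COL6A2 did not change. The ratios were not corrected for length and GC content. After the length and GC correction described below, averaged log2 fold changes were 0.73 for COL6A1, 0.68 for COL6A3 and 0.13 for COL6A2.

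**Figure D4:**
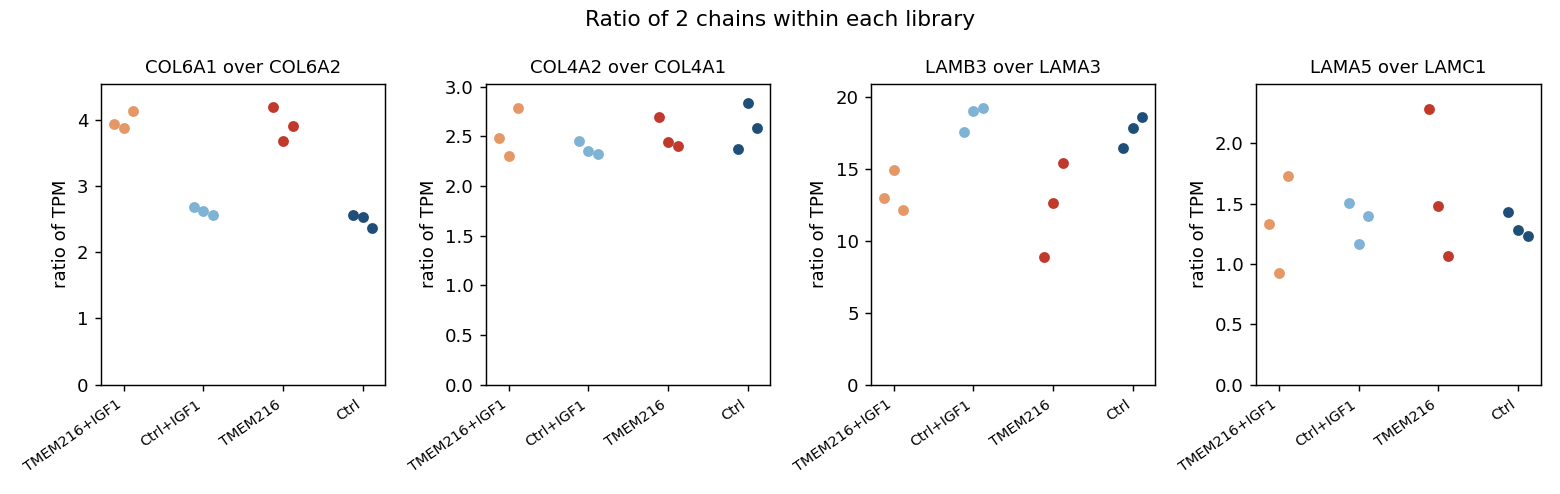
Ratio of TPM of a pair of chains within each library, 3 libraries per group, axes from 0. COL6A1 over COL6A2 separates the TMEM216 groups (3.67 to 4.20) from the Ctrl groups (2.37 to 2.69), LAMB3 over LAMA3 separates them the other way, and COL4A2 over COL4A1 and LAMA5 over LAMC1 overlap.

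Among fibrillar collagens, COL1A1 fell and the other 3 did not pass the test. COL1A1 encodes the alpha 1 chain of type I collagen, the main collagen of bone and skin. COL1A1 had 45.7, 45.6 and 44.6 TPM in TMEM216+IGF1 libraries, against 54.3, 57.2 and 48.5 TPM in Ctrl+IGF1 libraries. The libraries without IGF1 gave 42.7, 44.0 and 40.3 TPM in TMEM216 libraries, against 59.7, 57.2 and 58.8 TPM in Ctrl libraries. All TMEM216 libraries were below all Ctrl libraries. The averaged log2 fold change of COL1A1 was -0.34 (SE 0.053, adjusted p = 0.00323). It was -0.23 (adjusted p = 0.173) with IGF1, which passed under quantile normalization (adjusted p = 0.0421), median-of-ratios scaling (0.0297) and the length and GC correction (0.0222). Its value was -0.46 (adjusted p = 0.0115) without, and this call did not survive the removal of any single Ctrl library, with adjusted p up to 0.0766.

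COL5A1, which encodes the type V chain that starts fibrils, had 22.1, 20.6 and 22.8 TPM in TMEM216+IGF1 libraries, against 19.1, 17.3 and 13.6 TPM in Ctrl+IGF1 libraries. Without IGF1 it had 19.5, 20.1 and 18.8 TPM in TMEM216 libraries, against 18.2, 17.4 and 17.4 TPM in Ctrl libraries. The groups did not overlap within an IGF1 condition, but the averaged value of COL5A1 missed the threshold, at 0.26 (SE 0.077, adjusted p = 0.0769). It passed under quantile normalization and under median-of-ratios scaling (adjusted p = 0.0246 and 0.0272). COL27A1 and COL5A2 had averaged log2 values of 0.08 and 0.02, with adjusted p of 0.775 and 0.94.

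In type IV collagen the averaged log2 fold changes of 4 of 4 chains were above 0, also under both other scalings. Of these 4 chains limma called 0, with 3 at an unadjusted p under 0.05. At that p in the averaged comparison were 15 of all tested collagen and laminin chains (48.4%) and 20.1% of all features. With IGF1 limma also called 0 type IV chains (3 at an unadjusted p under 0.05, against 15.8% of all features). Without IGF1 it called 0 (0 at that p, against 13.2%). The summed class level was 90.4 ± 1.52 TPM in TMEM216+IGF1 and 65.5 ± 12.5 TPM in Ctrl+IGF1 libraries, and 82.6 ± 8.16 TPM in TMEM216 and 76.4 ± 1.55 TPM in Ctrl libraries (SD, n = 3 each). COL4A2 and COL4A1 encode the alpha 2 and alpha 1 chains of the common basement membrane molecule and lie head to head on chromosome 13. COL4A2 had 49.5, 49.3 and 52.2 TPM in TMEM216+IGF1 libraries, against 38.1, 40.2 and 27.6 TPM in Ctrl+IGF1 libraries. Without the growth factor, values were 37.9, 46.0 and 51.2 TPM in TMEM216 libraries, against 39.9, 42.5 and 43.7 TPM in Ctrl libraries. The groups were apart with IGF1, where Ctrl+IGF1 replicate 3 was far below its group, and overlapped without it. The averaged log2 fold change of COL4A2 was 0.30 (SE 0.096, adjusted p = 0.0968), with 0.52 (adjusted p = 0.092) for TMEM216+IGF1 against Ctrl+IGF1. Its averaged call passed under both other scalings (adjusted p = 0.0336 with quantiles and 0.0288 with median of ratios).

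COL4A1 had 19.98, 21.4 and 18.8 TPM in TMEM216+IGF1 libraries, against 15.5, 17.1 and 11.9 TPM in Ctrl+IGF1 libraries. Without added IGF1 there were 14.0, 18.8 and 21.4 TPM in TMEM216 libraries, against 16.8, 15.0 and 16.9 TPM in Ctrl libraries. TMEM216 replicate 1 and Ctrl+IGF1 replicate 3 were the lowest of their groups for COL4A1, as they were for COL4A2. The averaged log2 fold change was 0.27 for COL4A1 (SE 0.11, adjusted p = 0.176), 0.23 for COL4A5 (adjusted p = 0.195) and 0.17 for COL4A6 (adjusted p = 0.564). COL4A2 over COL4A1 ran 2.30 to 2.78 in TMEM216 libraries and 2.33 to 2.83 in Ctrl libraries, so the ratio of the pair overlapped.

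The shared promoter region of this pair is shown as the COL4A2 window, chr13:110307034-110307333 on the plus strand of GRCh38.p14 from RefSeq. The COL4A1 window lies on the minus strand and shares 226 bases with it. Capitals mark the motif matches as above.
COL4A2: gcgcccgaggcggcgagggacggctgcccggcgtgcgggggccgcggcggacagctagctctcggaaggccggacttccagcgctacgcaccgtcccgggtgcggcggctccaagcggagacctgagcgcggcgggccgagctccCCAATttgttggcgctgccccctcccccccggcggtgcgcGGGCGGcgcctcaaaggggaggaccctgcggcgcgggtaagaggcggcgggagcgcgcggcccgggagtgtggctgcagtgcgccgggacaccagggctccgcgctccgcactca
The COL4A2 window holds 1 CCAAT box and 1 GC box. The windows of COL4A5 and COL4A6 on chromosome X also lie on opposite strands and share 121 bases.

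Of the 10 other collagens above the filter, 3 rose and none fell in the averaged comparison: COL18A1, COL13A1 and COL17A1. COL18A1 encodes a basement membrane collagen of the multiplexin family, whose end is released as endostatin. COL18A1 had 59.7, 51.9 and 62.8 TPM in TMEM216+IGF1 libraries, against 41.3, 40.9 and 37.4 TPM in Ctrl+IGF1 libraries. In the absence of IGF1, levels were 60.2, 60.1 and 51.6 TPM in TMEM216 libraries, against 44.2, 45.6 and 44.5 TPM in Ctrl libraries. The populations did not overlap, with 57.7 ± 4.74 TPM in the 6 TMEM216 and 42.3 ± 3.05 TPM in the 6 Ctrl libraries (SD). COL18A1 rose 1.36-fold over these means, by 0.44 on the log2 scale (SE 0.064, adjusted p = 0.00229). Without IGF1 alone it did not pass (0.35, adjusted p = 0.097 by limma). There it passed in 2 of 10 processing settings. These were the length and GC correction alone (0.46, adjusted p = 0.00114) and with the replicate block (adjusted p = 0.00668). With IGF1 its call (0.53, adjusted p = 0.0112) was lost without TMEM216+IGF1 replicate 1 or 3, with adjusted p up to 0.072. COL18A1 overlaps SLC19A1 on the opposite strand, and whether the libraries kept strand is not stated, so reads could be shared between them.

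COL13A1, the highest chain, encodes a transmembrane collagen. COL13A1 had 573, 564 and 577 TPM in TMEM216+IGF1 libraries, against 469, 468 and 478 TPM in Ctrl+IGF1 libraries. The libraries without IGF1 gave 751, 594 and 565 TPM in TMEM216 libraries, against 547, 527 and 486 TPM in Ctrl libraries. The populations did not overlap, and TMEM216 replicate 1 stood far above the rest. COL13A1 rose 1.22-fold over the 6-library means, by 0.28 on the log2 scale (SE 0.066, adjusted p = 0.0299). Median-of-ratios scaling ended this call, and leaving out 1 library ended it in 7 of 12 fits, with adjusted p up to 0.0821, namely each Ctrl and each TMEM216+IGF1 library and Ctrl+IGF1 replicate 1.

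COL17A1 encodes a transmembrane collagen of hemidesmosomes, the plaques that fix epithelial cells to laminin. COL17A1 had 9.51, 10.1 and 11.9 TPM in TMEM216+IGF1 libraries, against 7.71, 8.28 and 6.64 TPM in Ctrl+IGF1 libraries. Without IGF1 it had 9.32, 10.3 and 8.77 TPM in TMEM216 libraries, against 7.80, 8.72 and 6.41 TPM in Ctrl libraries. The lowest TMEM216 library and the highest Ctrl library nearly met. COL17A1 rose by 0.36 (SE 0.092, adjusted p = 0.044 by limma). The call held without Ctrl replicate 2 or Ctrl+IGF1 replicate 2. It was lost without any other 1 library, with adjusted p up to 0.111. The call was also lost with no filter and with the replicate number as a block.

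Windows of COL18A1 and COL13A1 are shown because both chains rose in the averaged comparison and their windows differ widely in GC boxes. They are chr21:45404915-45405214 and chr10:69801656-69801955, both on the plus strand of GRCh38.p14 from RefSeq.
COL18A1: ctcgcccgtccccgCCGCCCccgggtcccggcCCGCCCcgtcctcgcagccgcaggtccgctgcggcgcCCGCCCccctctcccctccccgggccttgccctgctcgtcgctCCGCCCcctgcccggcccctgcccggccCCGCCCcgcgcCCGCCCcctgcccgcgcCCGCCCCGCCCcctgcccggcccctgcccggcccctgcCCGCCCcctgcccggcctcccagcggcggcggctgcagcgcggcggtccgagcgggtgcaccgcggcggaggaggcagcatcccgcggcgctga
COL13A1: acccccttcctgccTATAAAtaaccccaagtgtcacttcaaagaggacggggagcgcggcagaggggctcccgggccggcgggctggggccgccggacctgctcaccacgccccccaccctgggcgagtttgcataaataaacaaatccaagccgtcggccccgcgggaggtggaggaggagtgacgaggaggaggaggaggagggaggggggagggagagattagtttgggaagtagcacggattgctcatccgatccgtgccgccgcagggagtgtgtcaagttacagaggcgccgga
The COL18A1 window holds 9 GC boxes, some of them overlapping, and 86.7% G and C. The COL13A1 window holds 1 TATA box and 0 GC boxes, at 64.0% G and C.

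The other 7 chains of this class did not pass. COL12A1, a fibril-associated collagen, had 27.2, 27.3 and 55.3 TPM in TMEM216+IGF1 libraries, against 52.1, 25.8 and 45.1 TPM in Ctrl+IGF1 libraries. Without the growth factor, values were 55.8, 25.8 and 32.8 TPM in TMEM216 libraries, against 65.8, 27.2 and 27.1 TPM in Ctrl libraries. Each group held both low and high libraries, and COL12A1 had the largest spread within groups of the 31 chains (SD 0.60 on the log2 scale, where COL1A1 had the smallest, 0.07). Its averaged log2 fold change was -0.10 (95% interval -0.72 to 0.52, adjusted p = 0.895), an interval that leaves room for large differences in both directions.

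COL9A2, another fibril-associated chain, had 5.29, 6.17 and 6.33 TPM in TMEM216+IGF1 libraries, against 7.74, 7.43 and 8.06 TPM in Ctrl+IGF1 libraries. Without added IGF1 there were 7.05, 7.42 and 6.61 TPM in TMEM216 libraries, against 7.29, 7.99 and 7.27 TPM in Ctrl libraries. The groups were apart with IGF1 only. The averaged value of COL9A2 was -0.21 (SE 0.070, adjusted p = 0.111).

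COL7A1 had 138, 98.1 and 162 TPM in TMEM216+IGF1 libraries, against 165, 153 and 126 TPM in Ctrl+IGF1 libraries. In the absence of IGF1, levels were 173, 138 and 108 TPM in TMEM216 libraries, against 148, 140 and 136 TPM in Ctrl libraries. The spread of COL7A1 was wide in both TMEM216 groups, and its averaged value was -0.11 (SE 0.13, adjusted p = 0.717). COL8A1, a network-forming chain of vessel walls and cornea, had 49.1, 51.6 and 44.1 TPM in TMEM216+IGF1 libraries, against 54.2, 61.3 and 44.7 TPM in Ctrl+IGF1 libraries. The libraries without IGF1 gave 44.3, 56.7 and 65.3 TPM in TMEM216 libraries, against 64.8, 64.0 and 70.4 TPM in Ctrl libraries. All groups overlapped within an IGF1 condition, and the averaged value of COL8A1 was -0.20 (SE 0.099, adjusted p = 0.281). COL15A1, a multiplexin like COL18A1, had 1.59, 1.34 and 1.36 TPM in TMEM216+IGF1 libraries and 1.19, 1.21 and 1.05 TPM in Ctrl+IGF1 libraries, and 1.28, 1.12 and 0.967 TPM in TMEM216 libraries and 1.81, 1.20 and 1.05 TPM in Ctrl libraries. These low values had an averaged log2 fold change of 0.02 (SE 0.11, adjusted p = 0.946). COL16A1 and COL9A3 had averaged values of -0.02 and -0.09, with adjusted p of 0.96 and 0.768.

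Among laminin alpha chains LAMA3 rose and LAMA1 fell. LAMA3 encodes the alpha chain of the epithelial laminin that also holds LAMB3 and is bound by hemidesmosomes. LAMA3 had 26.9, 23.6 and 27.3 TPM in TMEM216+IGF1 libraries, against 19.3, 21.8 and 15.9 TPM in Ctrl+IGF1 libraries. Without IGF1 it had 28.7, 27.2 and 23.4 TPM in TMEM216 libraries, against 21.2, 20.2 and 21.0 TPM in Ctrl libraries. The populations did not overlap. LAMA3 rose 1.31-fold over the 6-library means, by 0.38 on the log2 scale (SE 0.082, adjusted p = 0.0198), and the call was lost in 4 of 12 fits that left out 1 library (TMEM216+IGF1 replicate 1 or 3, TMEM216 replicate 2, or Ctrl replicate 2), with adjusted p up to 0.0581.

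The LAMA3 window is shown because it alone among the 24 windows of tested chains held an AP-1 site. It is chr18:23872770-23873069 on the plus strand of GRCh38.p14, from RefSeq.
LAMA3: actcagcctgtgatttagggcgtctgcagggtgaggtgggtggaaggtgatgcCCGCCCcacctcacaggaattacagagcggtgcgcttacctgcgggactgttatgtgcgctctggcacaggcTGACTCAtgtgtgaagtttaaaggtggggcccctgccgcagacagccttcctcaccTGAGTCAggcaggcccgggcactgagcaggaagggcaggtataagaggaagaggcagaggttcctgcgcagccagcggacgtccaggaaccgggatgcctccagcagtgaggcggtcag
The LAMA3 window holds 2 AP-1 sites and 1 GC box.

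LAMA1 encodes the alpha chain of the laminin of the early embryo. LAMA1 had 3.83, 4.11 and 4.16 TPM in TMEM216+IGF1 libraries, against 5.46, 5.58 and 5.35 TPM in Ctrl+IGF1 libraries. Without the growth factor, values were 5.10, 4.23 and 4.22 TPM in TMEM216 libraries, against 6.48, 6.46 and 5.46 TPM in Ctrl libraries. The populations did not overlap at these low levels. LAMA1 had an averaged log2 fold change of -0.37 (SE 0.077, adjusted p = 0.0175), and the call was lost in 4 of 12 fits that left out 1 library (TMEM216+IGF1 replicate 1, TMEM216 replicate 2, or Ctrl replicate 1 or 2), with adjusted p up to 0.0573.

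LAMA5, the most abundant alpha chain and a component of most adult basement membranes, had 174, 129 and 197 TPM in TMEM216+IGF1 libraries, against 141, 133 and 106 TPM in Ctrl+IGF1 libraries. Without added IGF1 there were 217, 186 and 147 TPM in TMEM216 libraries, against 148, 143 and 143 TPM in Ctrl libraries. The groups overlapped, and the TMEM216 libraries spread more widely. The averaged value of LAMA5 was 0.35 (SE 0.12, adjusted p = 0.118). LAMA5 overlaps ADRM1 on the opposite strand, so reads could be shared. LAMA4, an alpha chain of vessels and muscle, was at 0.29 (adjusted p = 0.293), and LAMA2, that of skeletal muscle, at -0.18 (adjusted p = 0.639).

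The beta chains did not pass. LAMB3 had 349, 353 and 333 TPM in TMEM216+IGF1 libraries, against 340, 416 and 307 TPM in Ctrl+IGF1 libraries. In the absence of IGF1, levels were 255, 345 and 361 TPM in TMEM216 libraries, against 349, 361 and 391 TPM in Ctrl libraries. Groups overlapped in both conditions, and the averaged log2 fold change of LAMB3 was -0.12 (95% interval -0.32 to 0.08, adjusted p = 0.533). LAMB2, the beta chain of muscle and kidney laminins, had 168, 130 and 188 TPM in TMEM216+IGF1 libraries, against 171, 168 and 158 TPM in Ctrl+IGF1 libraries. The libraries without IGF1 gave 215, 183 and 146 TPM in TMEM216 libraries, against 179, 189 and 182 TPM in Ctrl libraries. The Ctrl libraries were close together and lay within the range of the TMEM216 ones, and the averaged value of LAMB2 was -0.04 (SE 0.10, adjusted p = 0.872). LAMB1, which overlaps DLD on the opposite strand, was at 0.22 (adjusted p = 0.313), with TMEM216 replicate 1 at 129 TPM and the other 11 libraries between 65.4 and 89.0 TPM.

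LAMC1 encodes the gamma chain that is part of most laminins. LAMC1 had 131, 139 and 114 TPM in TMEM216+IGF1 libraries, against 93.7, 114 and 75.5 TPM in Ctrl+IGF1 libraries. Without IGF1 it had 94.9, 125 and 137 TPM in TMEM216 libraries, against 103, 112 and 116 TPM in Ctrl libraries. The groups overlapped in both conditions, narrowly with IGF1, and the averaged value of LAMC1 was 0.27 (SE 0.11, adjusted p = 0.187). TMEM216 replicate 1 was the lowest of its group for LAMC1, as it was for LAMB3.

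LAMB3 did not pass singly, while LAMA3 did and separated the populations by itself. The ratio of LAMB3 to LAMA3 also separated them, and it is no separate evidence about LAMB3. LAMB3 over LAMA3 was 13.0, 14.95 and 12.2 in TMEM216+IGF1 libraries, against 17.6, 19.1 and 19.2 in Ctrl+IGF1 libraries. Without IGF1 it was 8.90, 12.7 and 15.4 in TMEM216 libraries, against 16.5, 17.9 and 18.6 in Ctrl libraries. Relative to LAMA3, LAMB3 was lower in each TMEM216 library than in any Ctrl library. In all, 10 ratios of chains that share a molecule or a class were computed, and 3 did not overlap between populations. Each of these 3 holds COL6A1, COL6A3 or LAMA3, chains that did not overlap on their own. No share over other pairs of genes was computed.

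Libraries of 1 group differed from each other in a patterned way. TMEM216 replicate 1 was the highest of its 3 for 14 chains, among them LAMA5, LAMB1, LAMB2 and COL7A1, and the lowest for 9, among them LAMB3, LAMC1, COL4A1 and COL4A2. TMEM216 replicate 3 was the reverse for each of these 8 named chains. Ctrl+IGF1 replicate 3 had a median deviation of -0.30 from the 12-library mean, against -0.12 to 0.13 in the other 11. In that library the median deviation of the 20% longest transcripts was -0.39 on the log2 scale against that of the 20% shortest, and in the other 11 it ran between -0.15 and 0.18. Without Ctrl+IGF1 replicate 3, the averaged calls of COL13A1, COL18A1, COL1A1, COL6A1, COL6A3, LAMA1 and LAMA3 were kept and that of COL17A1 was lost. After a correction of each library for transcript length and GC content, an alternative chosen after the data were seen, 14 chains were called in the averaged comparison, 11 higher and 3 lower. They were the 8 above and COL4A1, COL4A2, COL5A1, LAMA5 and LAMC1 as higher and COL8A1 as lower.

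**Figure D5:**
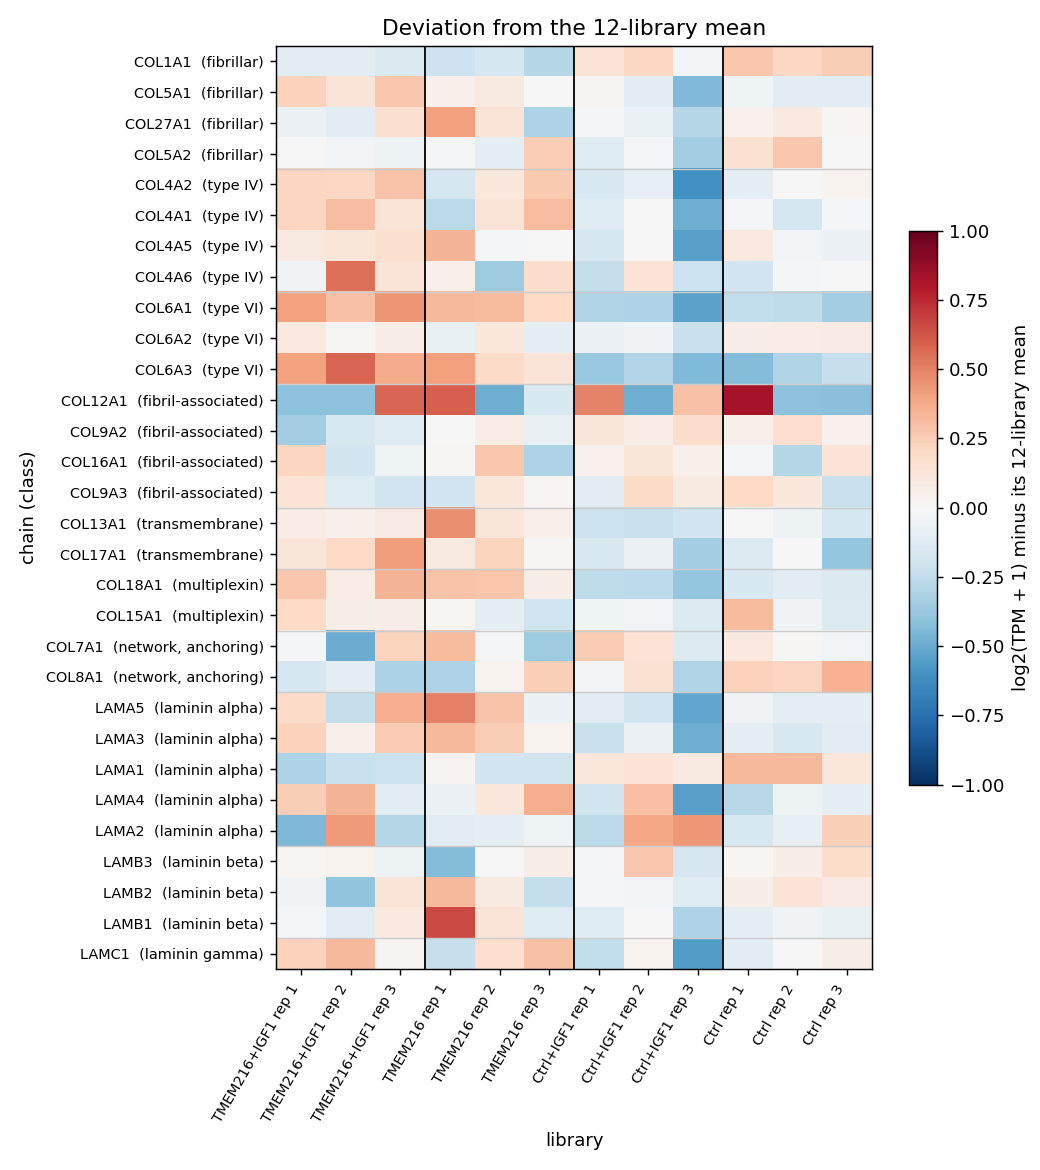
Log2(TPM + 1) of 30 chains minus its mean over the 12 libraries (colour, between -1 and 1), libraries in columns by group. COL6A1, COL6A3 and COL18A1 are above their mean in all 6 TMEM216 libraries and below it in all 6 Ctrl libraries, and the column of Ctrl+IGF1 replicate 3 is low for most chains.

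The IGF1 comparisons ask whether chains respond to the growth factor. In TMEM216+IGF1 against TMEM216 cells limma called 0 of 31 chains, with 0 at an unadjusted p under 0.05 (4.77% of all features), where 0.0153% of all features were called. The groups did not overlap for 3 chains that were higher and 2 that were lower with IGF1, against 10.2% of all features, 6.56% higher and 3.69% lower. In Ctrl+IGF1 against Ctrl cells it called 0, with 2 at an unadjusted p under 0.05 (COL6A2 and COL8A1, 6.45%, against 6.89% of all features) and 0.0306% of all features called. In Ctrl cells 25 of 31 chains were lower with IGF1 and 9 had no overlap between groups, all lower, against 14.6% of all features, 2.72% higher and 11.8% lower. The median of the 31 was -0.13 there, against -0.09 for all features. Without Ctrl+IGF1 replicate 3 this pattern was not seen: 17 of 31 were lower and the median was -0.02, as for all features (-0.02). After the length and GC correction 16 were lower, with a median of -0.0032, and after median-of-ratios scaling 19 were lower, with a median of -0.05, against -0.0049 for all features. In TMEM216 cells the median was 0.02, and it was below 0 with quantiles (-0.01), with median of ratios (-0.0023), after the length and GC correction (-0.03) and without TMEM216 replicate 3 (-0.0036).

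The interaction, the difference of the TMEM216 effect with IGF1 from that without, was called for 0 of 31 chains by limma, with 3 at an unadjusted p under 0.05 (9.68%, against 5.38% of all features) and a smallest adjusted p of 0.754. Of all features 0.0153% were called, 0.00765% higher and 0.00765% lower. The median interaction was 0.15 for the chains and 0.11 for all features, and 0.05 and 0.0040 after median-of-ratios scaling. Without Ctrl+IGF1 replicate 3 it was 0.07 for the chains and 0.05 for all features. After the length and GC correction it turned to -0.0096 for the chains, with 15 above 0 and 16 below, and 0.0029 for all features. The unequal counts of calls with and without IGF1 are thus not shown to differ.

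Genes that make, export, crosslink or bind collagens and laminins were described from lists. Of 15 tested genes of hydroxylation, glycosylation and folding, 1 fell in the averaged comparison and none rose, a share of 6.67% near the 5.22% of all features. That gene was PLOD3, a lysyl hydroxylase that also adds sugars to collagen, at 99.4 ± 7.09 TPM in the 6 TMEM216 and 118 ± 5.56 TPM in the 6 Ctrl libraries (SD, log2 -0.24, SE 0.058, adjusted p = 0.0329). Of 9 procollagen export genes and 4 tested genes of propeptide processing, limma called 0 in each TMEM216 comparison. In the averaged comparison 1 export gene and 2 propeptide processing genes were at an unadjusted p under 0.05, against 20.1% of all features. Of 7 crosslinking genes 1 fell in the averaged comparison (3.21% of all features fell there), LOX, the lysyl oxidase that links collagen fibrils. LOX had 28.8, 28.1 and 26.2 TPM in TMEM216+IGF1 libraries, against 29.3, 34.5 and 25.4 TPM in Ctrl+IGF1 libraries, and 24.7, 25.4 and 26.6 TPM in TMEM216 libraries, against 37.4, 38.0 and 39.4 TPM in Ctrl libraries. The groups were apart without IGF1 (log2 -0.56, SE 0.10, adjusted p = 0.0206) and overlapped with it, and the averaged value of LOX was -0.33 (adjusted p = 0.0203).

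Of 12 tested receptors 2 rose and 1 fell in the averaged comparison, where 2.00% of all features rose and 3.21% fell. ITGB4, the beta 4 integrin chain of hemidesmosomes that binds laminin, had 64.7, 63.1 and 71.7 TPM in TMEM216+IGF1 libraries, against 47.7, 50.5 and 45.2 TPM in Ctrl+IGF1 libraries, and 64.3, 65.3 and 60.6 TPM in TMEM216 libraries, against 58.0, 57.2 and 57.2 TPM in Ctrl libraries. The populations did not overlap, and ITGB4 rose by 0.30 (SE 0.052, adjusted p = 0.00585). ITGB4 passed with IGF1 (0.47, adjusted p = 0.00759 by limma) and was not called without. ITGA2, the alpha chain of a collagen-binding integrin, rose by 0.62 (SE 0.13, adjusted p = 0.0213), at 73.9 ± 16.0 TPM in the 6 TMEM216 and 47.3 ± 7.17 TPM in the 6 Ctrl libraries (SD), which overlapped. It passed with IGF1 (0.85, adjusted p = 0.0481) and was not called without. TMEM216 replicate 1 (47.6 TPM) and Ctrl+IGF1 replicate 3 (34.8 TPM) were the lowest of their groups for ITGA2, as they were for COL4A1. Fits without single libraries are not given for the genes of these lists. CSPG4, a proteoglycan that binds type VI collagen, averaged 3.53 ± 0.127 TPM in TMEM216+IGF1 and 3.89 ± 0.477 TPM in Ctrl+IGF1 libraries, which overlapped, and 2.90 ± 0.386 TPM in TMEM216 and 5.55 ± 0.431 TPM in Ctrl libraries, which did not (SD, n = 3 each). It fell without IGF1 (log2 -0.75, SE 0.12, adjusted p = 0.0114) and was not called with IGF1; the averaged value was -0.43 (adjusted p = 0.0138), with overlap of the 6 and 6 libraries. Of 5 tested basement membrane partners 1 rose, TINAGL1, a secreted matrix protein. TINAGL1 averaged 104 ± 7.57 TPM in TMEM216+IGF1 and 75.9 ± 0.625 TPM in Ctrl+IGF1 libraries, which were apart, and 87.5 ± 1.23 TPM in TMEM216 and 84.3 ± 3.34 TPM in Ctrl libraries, which overlapped (SD, n = 3 each). It rose with IGF1 (log2 0.45, SE 0.068, adjusted p = 0.00600) and was not called without IGF1; the averaged value was 0.25 (adjusted p = 0.0108), with overlap of the 6 and 6 libraries.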

How the data were processed

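Total RNA of 12 MDA-231-LM2 libraries, in 4 groups of 3 taken from the labels, was made into TruSeq RNA libraries, per the labels' protocols. The authors deposited TPM per feature. HISAT2, StringTie and RSEM were used, per the submitters' processing notes; no version, genome build or annotation is given in the sources available. TPM keeps no depth, so no counting interval is given, and a value of 0 is described as listed at 0.

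Values were transformed to log2(TPM + 1), and features with at least 1 TPM in 3 or more libraries (13071 of 21574) were fitted together with limma 3.58.1 in R 4.3.3 (package data.table, version 1.17.8), with a mean-variance trend and 4 group means. Tests were two-sided, and adjusted p is the Benjamini-Hochberg value over all 13071 features, with a threshold of 0.05. A difference is called where it passes. The fit was tested on simulated data. Tables and figures used Python 3.11.15, pandas 2.3.3 and matplotlib 3.10.9.

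The chains and gene lists were chosen with earlier results of these data known. Of the 31 chains above the filter, 1 is counted in all totals but is not reported here. Named were the other chains above the filter, in full those called in any comparison and the 2 highest of each class, and of each gene list up to 4 members with the smallest p among those called; promoters shown, ratios and other singled-out values were chosen after values were seen. Transcript length and GC content came from the longest GENCODE v29 transcript (12482 tested features, 95.5%), and overlap of genes from the same annotation.

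Alternatives were median-of-ratios scaling, quantile normalization, a fit with no variance trend, a filter at 5 TPM or none, a pseudocount of 0.1, a fit of the compared libraries alone, a block for replicate number, and fits without each library in turn or without both Ctrl+IGF1 replicate 3 and TMEM216 replicate 1. The length and GC correction, alone and with the block, was added after the data were seen.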

Additional observations from a re-analysis of the deposited data

Results flagged for a closer look

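COL1A1 moved in opposite directions with IGF1 in the 2 populations, with every library of 1 group on 1 side of the other. Of all features, 6.56% were higher with IGF1 without overlap in TMEM216 cells, and 11.8% were lower without overlap in Ctrl cells. In TMEM216 cells it had 45.7, 45.6 and 44.6 TPM with IGF1 and 42.7, 44.0 and 40.3 TPM without, a log2 fold change of 0.10. In Ctrl cells it had 54.3, 57.2 and 48.5 TPM with IGF1 and 59.7, 57.2 and 58.8 TPM without, a log2 fold change of -0.14. The Ctrl groups nearly met, at 57.155 TPM in Ctrl+IGF1 replicate 2 and 57.216 TPM in Ctrl replicate 2. Neither fold change passed the threshold, and the difference between the 2 was 0.23 (SE 0.11, adjusted p = 0.754 by limma), which did not pass either. After the correction for transcript length and GC content the change in TMEM216 cells was 0.06, that in Ctrl cells -0.02 and the difference 0.08.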

How the results depend on the processing

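The correction for length and GC content gave counts of called chains of 14 in the averaged comparison, 6 with IGF1 and 5 without, against 8, 3 and 3. With that correction and the replicate block they were 13, 6 and 3. Quantile and median-of-ratios scaling gave 5 with IGF1 each, and leaving out Ctrl+IGF1 replicate 3 with TMEM216 replicate 1 gave 6. A fit of only the libraries compared called 1 chain with IGF1 and 1 without. Leaving out 1 library gave 4 to 9 chains in the averaged comparison (4 without TMEM216+IGF1 replicate 1, and 5 without Ctrl replicate 1 or 2, TMEM216 replicate 2 or TMEM216+IGF1 replicate 3), 2 to 5 with IGF1 (5 without Ctrl+IGF1 replicate 2) and 1 to 3 without IGF1 (1 without any Ctrl library). The cause of these moves was not tested. Both IGF1 comparisons and the interaction stayed at 0 chains in every fit made. Averaged calls of COL6A1, COL6A3, COL18A1 and COL1A1 held in all 12 such fits and all 9 processing settings, and no log2 fold change of the 8 called chains reversed.

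The replicate numbers did not pair the libraries: deviations of same-numbered libraries correlated between -0.29 and 0.17, and of others between -0.27 and 0.28. With the replicate number as a block the counts were 7 averaged, 3 with IGF1 and 2 without; the averaged call of COL17A1 and that of COL6A3 without IGF1 were not among them. Depth is unknown, so its limit on the low chains cannot be stated.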
